A study of Rattus norvegicus with 32 samples.

Results

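RNA-seq libraries of the nucleus accumbens (NAc) and of the dentate gyrus (DG) were compared between saline-treated rats, which asks which genes set these brain regions apart when no METH is given. The comparison took 8 of the 32 libraries of the series, chosen by their labels alone: NAc Sal 1 to 4 and DG Sal 1 to 4. All came from adult male Sprague-Dawley rats that had received 4 injections of saline (1 mL/kg) at intervals of 2 h, and tissue was taken 24 h after the last one. The NAc was punched out of frozen slices with a 1 mm punch, whereas the DG was scooped out once the neocortex and corpus callosum above it had been taken away. The METH groups that are used below had 4 injections of 10 mg/kg METH on the same schedule. The labels do not say whether the 4 libraries of a group came from 4 animals, so p-values measure only the spread between these libraries.

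Each library held between 11094002 and 14564458 reads counted on 28914 genes, with 11.7% to 21.0% of them on mitochondrial genes. Levels are given as CPM, the reads of a gene relative to the size of its library, after upper-quartile scaling, and 1 read was worth 0.0687 to 0.0901 CPM before that scaling. The file headers placed NAc Sal 1 and 2 and DG Sal 3 in one sequencing run (run A) and NAc Sal 3 and 4 and DG Sal 1, 2 and 4 in another (run B). The headers also carry a library number. Numbers 22 and 23 name both NAc Sal 3 and 4 and DG Sal 3 and 4, numbers 20 and 21 name DG Sal 1 and 2 as well as NAc METH 1 and 2, and numbers 14 and 15 name NAc Sal 1 and 2 as well as DG METH 1 and 2. What the number stands for is not given in the sources used here.

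The principal neurons of the NAc are striatal medium spiny neurons, which release GABA and express dopamine receptors together with the phosphoprotein DARPP-32 (Ppp1r1b). A smaller population of large interneurons in the same tissue releases acetylcholine. The principal neurons of the DG are granule neurons, which release glutamate, arise from the pallium (the dorsal forebrain that also gives rise to cortex and the CA fields) and depend on the transcription factor Prox1.

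The labels were first checked against the markers of these cells. Ppp1r1b was measured at 2451, 478, 1098 and 513 CPM in NAc Sal 1 to 4, and at 57.9, 99.1, 542 and 78.4 CPM in DG Sal 1 to 4. The library labelled DG Sal 3 therefore lay inside the range of the NAc, and the other DG libraries lay below it. Drd1, the dopamine receptor of the direct striatal pathway, gave 383, 97.6, 228 and 139 CPM in the NAc libraries and 15.4, 7.42, 122 and 5.01 CPM in the DG libraries. Adora2a, the adenosine receptor of the indirect pathway, gave 518, 98.2, 254 and 98.1 CPM against 2.43, 3.15, 129 and 2.22 CPM. The markers of glutamatergic pallial neurons ran the other way. Slc17a7, the vesicular glutamate transporter of cortical and hippocampal neurons, stood at 1571, 1308, 3.87 and 1103 CPM in DG Sal 1 to 4, and at 111, 5.07, 59.5 and 673 CPM in NAc Sal 1 to 4. Neurod6, a transcription factor of these neurons, stood at 128, 44.2, 0.0635 and 72.5 CPM in the DG libraries. The library labelled DG Sal 3 had the lowest level of both genes among the 8.

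**Figure D1:**
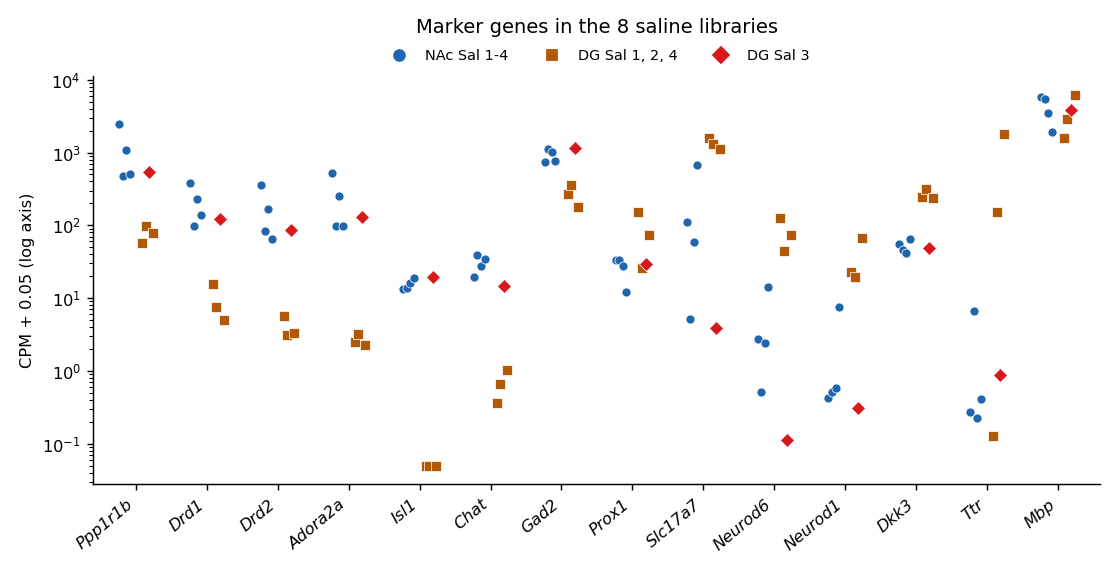
Levels of 14 marker genes in the 8 saline libraries (CPM plus 0.05 on a log axis; circles, NAc Sal 1 to 4; squares, DG Sal 1, 2 and 4; diamond, DG Sal 3). For Ppp1r1b, Drd1, Drd2 and Adora2a the diamond sits among the circles, and for Neurod6 it sits below them at 0.0635 CPM.

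The same position was seen across whole marker lists. The summed level of 23 medium spiny neuron markers was 4111 CPM in the library labelled DG Sal 3, between 692 and 936 CPM in the other DG libraries and between 3516 and 17060 CPM in the NAc libraries. The summed level of 15 pallial glutamatergic markers was 49.4 CPM there, 1704 to 2478 CPM in the other DG libraries and 44.0 to 946 CPM in the NAc libraries. Over the 14718 genes tested, this library was nearer to the NAc mean than to the mean of the other DG libraries (on a log2 scale) for 10488 genes, or 71.3%. Of the 2718 genes whose 4 NAc and 3 other DG values did not overlap, it fell within the range of the NAc for 1847 and within the range of the DG for 135. Its closest library was NAc Sal 2, with which its log2 CPM correlated at 0.993 across genes, and which shares its run. The labels put this library in the DG, and it is kept there in the fit of all 8. Every result is given without it as well.

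The remaining libraries also differed within their groups. NAc Sal 4 had the highest pallial sum of the NAc libraries (946 CPM), and NAc Sal 1 had the highest medium spiny neuron sum. Transthyretin (Ttr), the main secreted protein of the choroid plexus, was at 1802 CPM in DG Sal 4 and at 152 CPM in DG Sal 2, while DG Sal 1 and the library labelled DG Sal 3 held 0.0783 and 0.826 CPM. As a list, granule neuron markers did not keep the regions apart in these saline libraries. In the METH contrast below, 9 of the 18 tested were lower in the NAc at an FDR (false discovery rate) below 0.05. Prox1 was at 150, 26.1, 29.6 and 74.5 CPM in DG Sal 1 to 4 and at 32.9, 33.3, 27.9 and 12.2 CPM in NAc Sal 1 to 4, so that DG Sal 2 lay within the range of the NAc. The summed level of 21 granule neuron markers, which the NAc shares in part, ran from 602 to 1025 CPM in the DG and from 720 to 879 CPM in the NAc. It was 1408, 730, 1599 and 831 CPM in CA Sal 1 to 4, so this sum does not set the DG libraries apart from CA either. In bulk tissue, fewer cells of a type and less RNA per cell cannot be told apart, and this holds for every level given here.

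**Figure D2:**
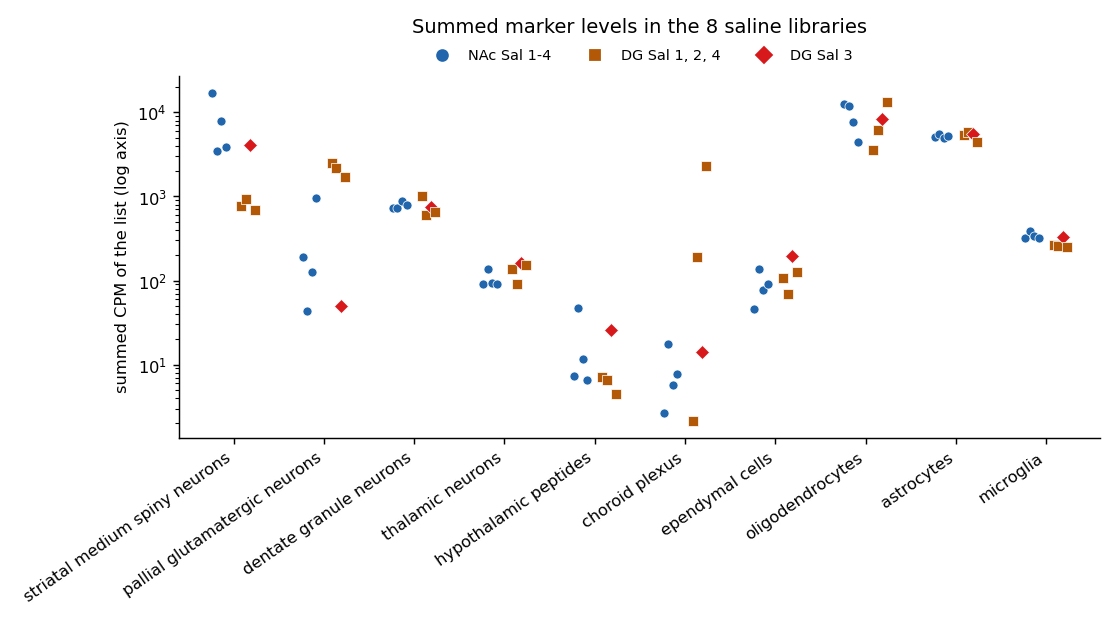
Summed CPM of 10 marker lists in the 8 saline libraries (log axis; circles, NAc Sal 1 to 4; squares, DG Sal 1, 2 and 4; diamond, DG Sal 3). Of the 10 lists drawn, the medium spiny neuron, pallial and microglial sums keep the circles apart from the squares, and choroid plexus reaches 2330 CPM in DG Sal 4.

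In the fit of all 8 libraries no gene was called different between the regions. Genes were called at a false discovery rate (FDR) below 0.01 and a fold change above 2 in edgeR's quasi-likelihood test, and 0 of the 14718 genes tested (0.0%) met this, with a lowest FDR of 0.484. At an unadjusted p below 0.05 there were 1468 genes. DESeq2 called 4 genes on the same counts, all lower in the NAc. The 4 values of each region did not overlap for 233 genes that were higher in the NAc (1.58% of those tested) and for 185 that were lower (1.26%). All 22 medium spiny neuron markers that could be tested were higher in the NAc on average, with a median log2 fold change of 2.48 against 0.00 over all genes, yet none had groups that did not overlap.

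Without the library labelled DG Sal 3, 20 genes were called. Of the 14866 genes tested, 15 were higher in the NAc (0.101%) and 5 were lower (0.0336%), and under TMM or RLE scaling 17 were higher and 10 lower. The biological coefficient of variation, which is the spread between libraries of a group, was 0.271 in this fit and 0.302 in the fit of 8. At an FDR below 0.05 and any fold change, 195 genes were higher (1.31%) and 137 were lower (0.922%). The values did not overlap for 1585 genes that were higher (10.7%) and for 1177 that were lower (7.92%). The count of 20 rested on several of the 7 libraries: it was 0 without NAc Sal 3, 0 without DG Sal 1, 0 without DG Sal 2, 4 without DG Sal 4, 11 without NAc Sal 2 and 32 without NAc Sal 4. Within run B, which held 2 NAc and 3 DG libraries, 0 genes were called and 69 had an FDR below 0.05. With the run as a covariate 1 gene was called among the 7 libraries, and run A then held NAc libraries only.

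**Figure D3:**
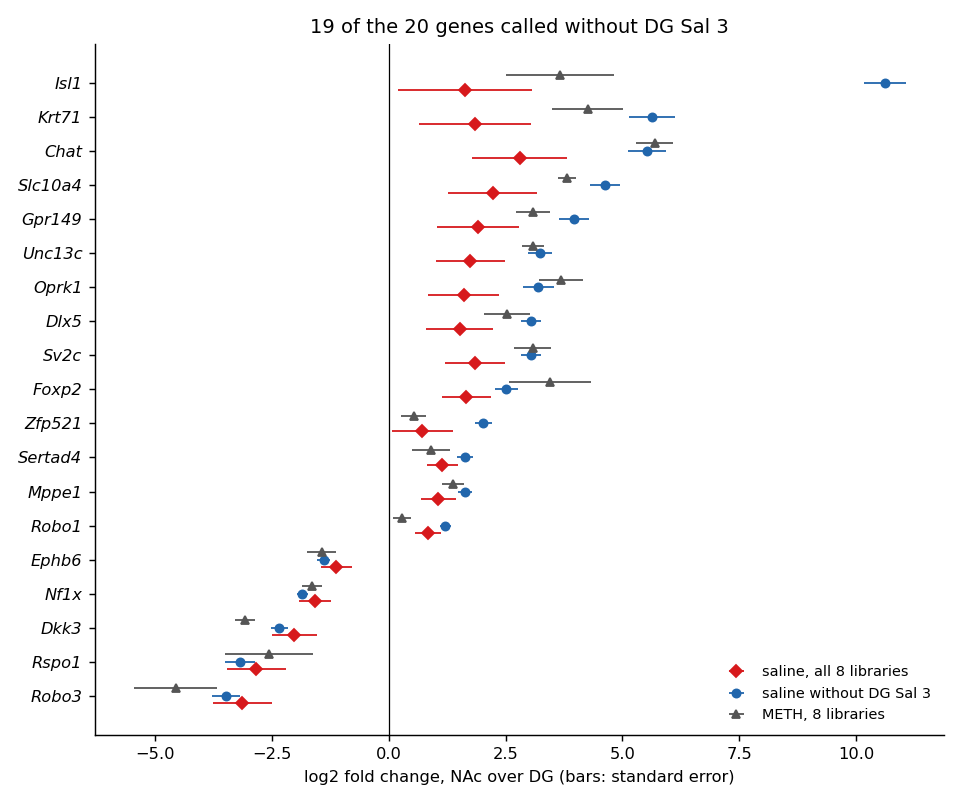
Log2 fold change of NAc over DG, with its standard error, for 19 of the 20 genes called without DG Sal 3 (diamonds, all 8 saline libraries; circles, saline without DG Sal 3; triangles, METH libraries). Every diamond lies closer to 0 than its circle, and all 19 triangles lie on the same side of 0 as the circles.

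Of the genes called higher in the NAc, 4 encode transcription factors. Isl1, a LIM homeodomain factor of striatal and cholinergic neurons (rn6 chromosome 2, positions 48487736 to 48501436, minus strand), was at 13.3, 13.5, 16.02 and 18.6 CPM in NAc Sal 1 to 4. It had no read in DG Sal 1, 2 and 4 and stood at 19.2 CPM in the library labelled DG Sal 3. Set against 3 reads over those 3 DG libraries together, the level in the NAc was at least 193-fold higher (FDR = 0.00289). With all 8 libraries the difference was 1.63 ± 1.43 (log2, SE) at an FDR of 0.710. Dlx5, a homeodomain factor of GABAergic neurons, was at 28.3, 20.8, 21.4 and 17.2 CPM in the NAc and at 2.58, 2.97, 22.1 and 2.38 CPM in the DG. Its log2 fold change was 3.04 ± 0.21 (FDR = 0.00288) without the third of these DG values and 1.51 ± 0.72 (FDR = 0.514) with it. Foxp2, a forkhead factor of medium spiny neurons, had a mean of 106 ± 28.7 CPM (SD, n = 4) in the NAc and of 18.4 ± 0.916 CPM (SD, n = 3) in DG Sal 1, 2 and 4 (log2 fold change 2.52 ± 0.24, FDR = 0.00819). Zfp521, a zinc finger factor, had a mean of 38.1 ± 7.13 CPM against 9.33 ± 0.438 CPM, and its highest value of the 8 libraries was the 63.4 CPM of the library labelled DG Sal 3. All 4 factors had that library inside or above the range of the NAc.

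Genes of cholinergic neurons formed the next group. Chat, the enzyme that makes acetylcholine, was at 19.3, 38.5, 27.3 and 34.1 CPM in NAc Sal 1 to 4 and at 0.313, 0.612, 14.5 and 0.986 CPM in DG Sal 1 to 4. The level was 46.8-fold higher in the NAc by the ratio of means without the library labelled DG Sal 3 (log2 fold change 5.53 ± 0.41, FDR = 0.003), and 2.80 ± 1.02 on the log2 scale (FDR = 0.484) with all 8. Slc10a4, a transporter-like protein of the vesicles of cholinergic and monoaminergic neurons, was at 21.7, 41.9, 22.5 and 29.9 CPM against 1.02, 1.14, 20.8 and 1.32 CPM (log2 fold change 4.63 ± 0.32, FDR = 0.00288, without the third DG value). For Chat and Slc10a4 the NAc and DG values did not overlap even with all 8 libraries, although the library labelled DG Sal 3 lay nearer to the NAc mean than to that of the other DG libraries on a log2 scale. Further members of the acetylcholine list passed an FDR of 0.05 without being called. Slc18a3, the vesicular acetylcholine transporter, was at 12.9, 28.6, 14.9 and 21.9 CPM against 0.235, 1.05, 9.72 and 1.07 CPM (log2 fold change 4.63 ± 0.51, FDR = 0.0107). Slc5a7, the choline transporter, had an FDR of 0.0224, and Ache, the enzyme that breaks acetylcholine down, an FDR of 0.0498. Of 14 tested genes of this list, these 4 were higher at that threshold and none was lower, against 1.31% and 0.922% of all genes. The median log2 fold change was 0.38 against 0.03 over all genes tested. No muscarinic or nicotinic receptor gene passed. Lhx8, a homeodomain factor of cholinergic interneurons that was picked out after its values were seen, had no read in DG Sal 1, 2 and 4 and stood at 20.4 CPM in the library labelled DG Sal 3 and at 6.48 to 37.0 CPM in the NAc.

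Chat and Slc18a3 lie at one locus, where the transporter gene sits inside the Chat gene on the same strand, and they are shown because both passed the looser threshold. Isl1 is shown for its lack of reads in 3 DG libraries, Robo3 as a gene called lower in the NAc, and Neurod6 as the pallial marker with the most negative value. Promoter sequences were taken from RefSeq (GRCr8) as the 250 bases before each gene's start, written 5′ to 3′ on the gene's strand. They matched 12 of the 20 called genes by symbol. Capitals mark matches on either strand to CAGATG (an E-box bound by NEUROD factors, in 14.0% of all 33469 windows), TAATTA (a homeodomain core, 4.86%) and TGACGTCA (the cAMP response element, 1.59%).
Isl1 (GRCr8 chr2:49823443-49823692, minus strand): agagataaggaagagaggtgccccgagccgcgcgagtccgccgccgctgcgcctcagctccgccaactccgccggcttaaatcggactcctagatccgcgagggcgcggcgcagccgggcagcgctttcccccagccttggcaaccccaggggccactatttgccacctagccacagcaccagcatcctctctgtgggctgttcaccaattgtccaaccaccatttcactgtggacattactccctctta
Chat (GRCr8 chr16:7723417-7723666, minus strand): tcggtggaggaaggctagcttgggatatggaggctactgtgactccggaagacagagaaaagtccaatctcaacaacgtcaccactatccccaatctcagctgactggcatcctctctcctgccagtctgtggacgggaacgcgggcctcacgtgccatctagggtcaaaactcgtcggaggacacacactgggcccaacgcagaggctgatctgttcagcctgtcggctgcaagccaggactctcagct
Slc18a3 (GRCr8 chr16:7722815-7723064, minus strand): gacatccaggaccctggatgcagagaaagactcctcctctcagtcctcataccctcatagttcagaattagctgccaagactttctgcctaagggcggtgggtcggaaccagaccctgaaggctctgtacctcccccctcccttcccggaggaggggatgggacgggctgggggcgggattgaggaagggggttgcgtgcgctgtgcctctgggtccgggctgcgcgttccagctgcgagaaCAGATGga
Neurod6 (GRCr8 chr4:86180156-86180405, minus strand): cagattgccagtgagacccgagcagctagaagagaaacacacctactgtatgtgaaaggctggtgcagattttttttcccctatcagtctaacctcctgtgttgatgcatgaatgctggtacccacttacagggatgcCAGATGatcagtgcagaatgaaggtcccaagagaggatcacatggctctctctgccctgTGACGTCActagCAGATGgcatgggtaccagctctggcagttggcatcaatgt
Robo3 (GRCr8 chr8:45340223-45340472, minus strand): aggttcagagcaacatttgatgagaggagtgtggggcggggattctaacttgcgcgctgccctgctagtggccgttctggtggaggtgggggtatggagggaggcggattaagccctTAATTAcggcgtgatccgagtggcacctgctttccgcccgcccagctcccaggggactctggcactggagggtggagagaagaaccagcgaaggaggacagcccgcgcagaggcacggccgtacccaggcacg
The Neurod6 window held 2 CAGATG matches, which began 112 and 41 bases before the start, and 1 TGACGTCA match between them, which began 53 bases before it. The Robo3 window held 1 TAATTA match and the Slc18a3 window 1 CAGATG match. The Isl1 and Chat windows held none of the 3 motifs, which says only that these letters are not in them. The windows of Slc18a3 and Chat were 352 bases apart.

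The other genes called higher in the NAc included synaptic and receptor genes. Sv2c, a synaptic vesicle protein found mainly in the basal ganglia, was at 140, 105, 143 and 99.99 CPM in NAc Sal 1 to 4 and at 12.8, 19.0, 89.7 and 12.6 CPM in DG Sal 1 to 4. Its log2 fold change was 3.04 ± 0.22 (FDR = 0.00288) without the library labelled DG Sal 3 and 1.84 ± 0.64 (FDR = 0.484) with it. Unc13c, a priming factor for vesicle release, had means of 94.97 ± 25.2 CPM (SD, n = 4) and 10.0 ± 1.63 CPM (SD, n = 3), and Gpr149, an orphan receptor, had means of 31.6 ± 10.9 CPM and 2.00 ± 0.166 CPM. Oprk1, the kappa opioid receptor on which dynorphin acts, was at 21.7, 15.6, 28.3 and 17.7 CPM against 1.57, 3.32, 20.1 and 1.89 CPM (log2 fold change 3.20 ± 0.33, FDR = 0.0098, without the third DG value). Krt71, a keratin gene, was at 18.0 to 23.0 CPM in NAc Sal 1, 3 and 4 and at 15.5 CPM in NAc Sal 2, and did not exceed 0.783 CPM in DG Sal 1, 2 and 4. Robo1, an axon guidance receptor for SLIT proteins, showed the smallest difference of the 15, at 131, 133, 168 and 136 CPM against 63.7, 58.6, 133 and 61.0 CPM (log2 fold change 1.21 ± 0.12, FDR = 0.0088). Sertad4 and Mppe1, outside the naming rule and picked after their values were seen, had a log2 fold change of 1.63 each, and Mppe1 gave 0.70 and was not called in the series count matrix.

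The 5 genes called lower in the NAc were Robo3, Rspo1, Dkk3, Nf1x and Ephb6. Robo3, a relative of Robo1 that steers axons at the midline, was at 1.81, 1.33, 1.31 and 0.953 CPM in NAc Sal 1 to 4 and at 10.3, 14.3, 2.03 and 20.9 CPM in DG Sal 1 to 4. The mean of DG Sal 1, 2 and 4 was 11.2-fold that of the NAc (log2 fold change -3.49 ± 0.31, FDR = 0.00578). With all 8 libraries the groups still did not overlap, and the value was -3.14 ± 0.63 at an FDR of 0.484. Robo1 and Robo3 thus differed between the regions in opposite directions. Dkk3, a secreted protein of hippocampal and cortical neurons, was at 56.1, 46.2, 42.0 and 65.1 CPM against 246, 314, 49.0 and 239 CPM (log2 fold change -2.35 ± 0.18, FDR = 0.003, without the third DG value). Nf1x, an older symbol of the nuclear factor I gene Nfix, was at 71.9, 64.2, 54.7 and 60.8 CPM against 245, 222, 70.4 and 212 CPM (log2 fold change -1.85 ± 0.12, FDR = 0.00288). Ephb6, an ephrin receptor without kinase activity, was at 57.6, 45.4, 46.0 and 54.3 CPM against 117, 153, 42.5 and 129 CPM (log2 fold change -1.39 ± 0.14, FDR = 0.00842). Rspo1, a secreted enhancer of WNT signalling that lies outside the naming rule, was below 1 CPM in every NAc library and between 5.64 and 5.83 CPM in DG Sal 1, 2 and 4. For Dkk3, Nf1x and Rspo1 the library labelled DG Sal 3 lay inside the range of the NAc.

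The gene lists were then read in the fit without the library labelled DG Sal 3, at an FDR below 0.05 and any fold change. They were chosen with earlier results of these data known, so their counts are a description, to be read against the 1.31% of all genes that were higher and the 0.922% that were lower at this threshold. Of 22 tested medium spiny neuron markers, 13 were higher in the NAc and none was lower, with a median log2 fold change of 3.50 against 0.03 over all genes. All 22 had positive values, and for 21 the NAc and DG values did not overlap, against 10.7% of all genes in that direction. The library left out had been described above with these same markers, and it lay within the NAc range for all 21. With all 8 libraries none was without overlap, so this count is no independent check. Drd2, the dopamine receptor of the indirect pathway, was at 355, 84.1, 165 and 63.9 CPM in NAc Sal 1 to 4 and at 5.64, 3.06, 84.8 and 3.29 CPM in DG Sal 1 to 4 (log2 fold change 5.37 ± 0.74, FDR = 0.0187). Penk, the enkephalin precursor, had a log2 fold change of 3.998 ± 0.63 (FDR = 0.0267), and Tac1, the substance P precursor, one of 4.02 ± 0.61 (FDR = 0.0255). Drd3, the dopamine receptor of the limbic striatum, did not pass, at 0.377, 3.67, 6.27 and 12.8 CPM against 0.262 CPM in DG Sal 2 and no read in DG Sal 1 and 4 (FDR = 0.0804). None of these 13 markers reached the stricter threshold of 0.01. NAc Sal 1 stood above the other NAc libraries for Ppp1r1b, Drd1, Drd2 and Adora2a.

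**Figure D4:**
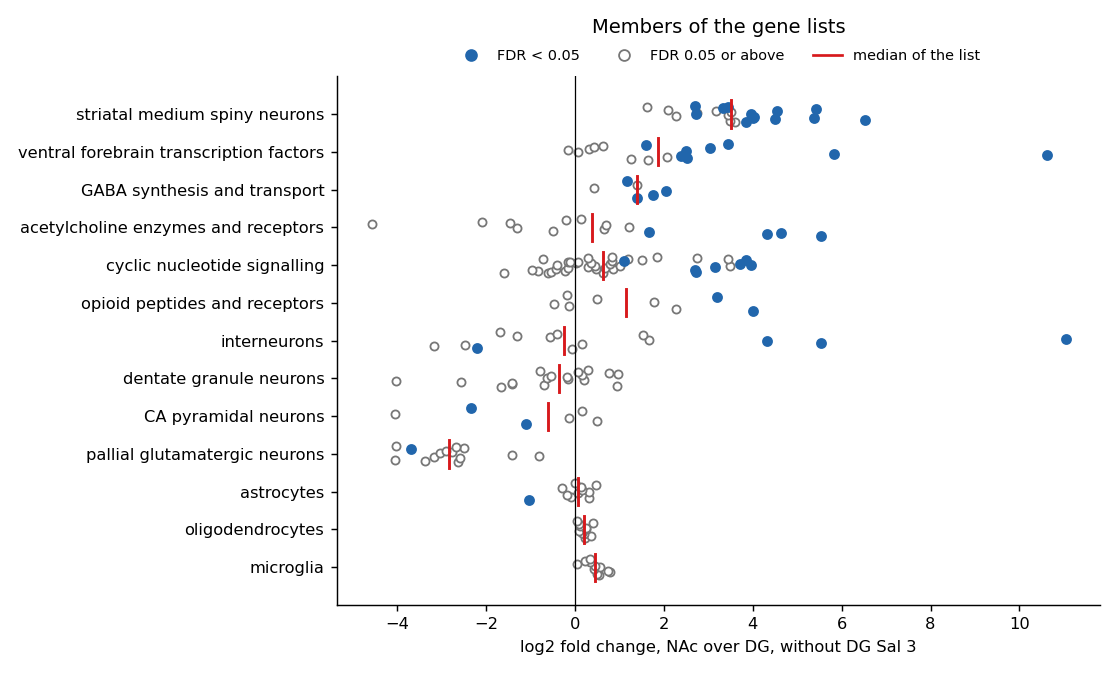
Log2 fold change of NAc over DG without DG Sal 3 for the tested members of 13 gene lists (filled, FDR below 0.05; open, FDR of 0.05 or above; bar, median of the list). Medium spiny neuron markers centre on 3.50 and pallial markers on -2.83. The medians of dentate granule, oligodendrocyte and astrocyte markers are -0.37, 0.20 and 0.07, and the granule markers spread from -4.03 to 0.96.

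Genes of GABA and of its release followed the same direction. Gad1 and Gad2, which make GABA, were 1.38 ± 0.21 (FDR = 0.0240) and 1.76 ± 0.27 (FDR = 0.0267) higher on the log2 scale in the NAc. Slc32a1, the vesicular GABA transporter, was at 287, 364, 297 and 228 CPM in NAc Sal 1 to 4 and at 69.8, 93.1, 336 and 51.8 CPM in DG Sal 1 to 4 (log2 fold change 2.03 ± 0.24, FDR = 0.0126). In all, 4 of 6 genes of this list were higher. Among ventral forebrain transcription factors 8 of 16 tested were higher and none was lower, and among 39 genes of cyclic nucleotide signalling 7 were higher, against 1.31% of all genes. The latter included Adcy5, the main adenylyl cyclase of the striatum, at 1949, 574, 1170 and 621 CPM against 188, 182, 659 and 116 CPM (log2 fold change 2.73 ± 0.48, FDR = 0.0379). Adcy1, a calmodulin-stimulated cyclase of cortex and hippocampus, had the opposite sign without passing, at -1.61 ± 0.38 (FDR = 0.0763). Of 14 tested retinoid genes 1 was higher and 2 were lower. The receptor Rarb was higher (3.44 ± 0.48, FDR = 0.0198). The receptor Rara (-1.24 ± 0.16, FDR = 0.0157) and Aldh1a2 (-2.63 ± 0.51, FDR = 0.0479) were lower. Aldh1a2 stood at 3.05, 10.7 and 15.8 CPM in DG Sal 1, 2 and 4, whose choroid plexus sums were 2.11, 193 and 2330 CPM. Whether its level goes with that tissue was not tested. Htr1d, a serotonin autoreceptor, was at 10.9, 5.07, 6.44 and 4.11 CPM in the NAc and at 0.235, 0.699, 4.13 and 0.411 CPM in the DG (log2 fold change 3.87 ± 0.51, FDR = 0.0165). Tacr1, the substance P receptor, was higher by 2.47 ± 0.34 (FDR = 0.0187). Both thus had higher levels in the NAc than in DG Sal 1, 2 and 4, and the library labelled DG Sal 3 was closer to the NAc in both. Tacr1 belongs to a list of 27 tested neuropeptide and receptor genes, of which 2 were higher (Tac1 and Tacr1) and 2 were lower. The lower ones were Sstr4 and Adcyap1, the latter at -3.57 ± 0.60 (FDR = 0.0325). The median log2 fold change of this list was -0.38.

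On the DG side, pallial genes were lower in the NAc in size but mostly missed the threshold. All 14 tested pallial glutamatergic markers had negative values. Their median log2 difference was -2.83 and for 13 the values did not overlap, against 7.92% of all genes in that direction. These markers, too, had been used above to describe the library left out, and with all 8 libraries none was without overlap. Only 1 passed an FDR of 0.05. That gene was Fezf2, a zinc finger factor of deep cortical layers picked after its values were seen, at 67.9, 30.1 and 35.1 CPM in DG Sal 1, 2 and 4 and at 1.53 to 6.82 CPM in the NAc (FDR = 0.0214). Neurod6 reached -4.05 ± 0.91 (FDR = 0.0660), Neurod1, a basic helix-loop-helix factor of granule neurons, -4.03 ± 1.04 (FDR = 0.0898), and Slc17a7 -2.65 ± 1.21 (FDR = 0.273). NAc Sal 4 had the highest NAc level of each, with 14.1, 7.55 and 673 CPM. None of 18 tested granule neuron markers passed, their median was -0.37, and Calb1, a calcium buffer of granule neurons that medium spiny neurons also express, was at 0.94 ± 0.59. Among CA pyramidal markers Dkk3 and Mpped1 were lower (Mpped1 -1.11 ± 0.22, FDR = 0.0466). Pvalb, a calcium buffer of fast-spiking interneurons, was at 8.14, 16.1, 8.18 and 11.6 CPM in the NAc and at 32.7, 87.4, 6.03 and 32.9 CPM in the DG (log2 fold change -2.21 ± 0.41, FDR = 0.0422), whereas Sst, the somatostatin gene, gave -0.08 ± 0.26 (FDR = 0.894).

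Few members of the glial and vascular lists passed. Gfap, the intermediate filament of astrocytes, was at 231, 284, 226 and 275 CPM in NAc Sal 1 to 4 and at 460, 584, 223 and 514 CPM in DG Sal 1 to 4 (log2 fold change -1.04 ± 0.14, FDR = 0.0187, without the third DG value), and it was the 1 of 11 astrocyte markers to pass. All 11 microglial markers had positive values, with a median of 0.45 on the log2 scale. For 7 the values did not overlap, against 10.7% of all genes in that direction, and none passed. Oligodendrocyte sums ranged from 4455 to 12620 CPM in the NAc and from 3579 to 13390 CPM in the DG, and no oligodendrocyte, precursor, endothelial, ependymal or choroid plexus marker passed. The 17 immediate early genes, which neurons switch on with activity, had a median of -0.64 and none passed. Of 52 potassium channel genes 1 was higher and 3 were lower, and of 49 axon guidance genes 2 were higher and 2 lower, against 1.31% and 0.922% of all genes. No gene passed among hilar mossy cell markers, hypothalamic peptides, endocannabinoid genes, new neuron markers or cell division genes. In DG Sal 4, whose choroid plexus sum was 2330 CPM, the part of that tissue in other differences was not tested.

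The same regions were compared in METH-treated rats, in libraries that the saline contrast did not use, although numbers 14, 15, 20 and 21 of the headers occur in both contrasts. Over the 16 libraries of both treatments, fitted without a treatment term, 157 genes were called between the regions. With the header number as a block, again without a treatment term, 2 were called. Under numbers 14, 15, 20 and 21 the NAc and DG libraries carry different treatment labels. With 4 NAc METH and 4 DG METH libraries, 155 of 14875 genes were called higher in the NAc (1.04%) and 218 lower (1.47%). The library labelled NAc METH 3 had a medium spiny neuron sum of 816 CPM and a hypothalamic peptide sum of 1676 CPM, and without it 677 genes were called. The count was between 108 and 174 without any one of NAc METH 1, 2 and 4 and DG METH 1, 2 and 4, and 469 without DG METH 3, which had a choroid plexus sum of 6479 CPM. All 20 genes called in saline had the same sign in METH, and 9 of them were called there, or 45.0% of the saline calls and 2.41% of the METH calls. The share of all genes with the same sign in both contrasts was not computed, so the same-sign counts here and below have no background. Chat gave 5.69 ± 0.40 (FDR = 0.000289), Slc10a4 3.81 ± 0.19 (FDR = 0.000115) and Dkk3 -3.08 ± 0.22 (FDR = 0.000289) in METH. Robo1 gave 0.28 ± 0.19 (FDR = 0.392). Of the genes named above as lower at an FDR below 0.05 without being called, Fezf2, Rara and Sstr4 passed that threshold again in METH. Gfap, Pvalb, Mpped1, Aldh1a2 and Adcyap1 did not. Of 18 tested granule neuron markers, 9 were lower at an FDR below 0.05 in METH, where 5.47% of all genes were lower at that threshold. Prox1 was among them (-2.89 ± 0.52, FDR = 0.0106). Of the 373 METH calls, 364 were tested in saline without the library labelled DG Sal 3 and 346 (95.1%) had the same sign there. Their median size along the METH sign was 1.13 on the log2 scale in that fit, 0.84 in the fit of 8 saline libraries and 1.86 in METH itself. These genes were chosen in METH at a fold change above 2, so their size there is set in part by that choice. It cannot be compared with the saline sizes. The difference of the region contrast between METH and saline was tested directly over the 16 libraries, and edgeR called 0 of 15473 genes, with 1407 at an unadjusted p below 0.05, while DESeq2 called 16. Without the library labelled DG Sal 3 edgeR again called 0.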

How the data were processed

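The authors trimmed reads with cutadapt 2.7, checked them with FastQC 0.11.4, aligned them to rn6 with STAR 2.5.2b and counted them per gene with featureCounts 1.6.3. The deposited values are unnormalized counts. Strand was not used in counting, so overlapping antisense genes cannot be told apart. The file headers name an Ensembl annotation, the study's methods a UCSC one. RNA was depleted of rRNA before library construction.

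Groups came from the labels. Counts were tested in R 4.3.3 with edgeR 4.0.16 (quasi-likelihood F test, upper-quartile scaling, filterByExpr, Benjamini-Hochberg FDR), and only the groups compared entered a fit. The script was tested on simulated data. DESeq2 1.42.0, other scalings, filters, thresholds, RUVr factors, the sequencing run, replicate blocks and leaving out each library were alternatives. CPM were scaled over all 32 libraries. A series count matrix was used as an alternative only, and its 17 columns that name no sample used here were left out.

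Members and lists were chosen with earlier results of these data known. Named genes were the 12 highest and 12 lowest called genes of each saline fit with a mean of at least 5 CPM and no overlap, the first 4 members and every called member of each list, and genes the study names. Genes outside that rule are marked as such, or are list members counted above. One of the called genes is not reported here.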

Additional observations from a re-analysis of the deposited data

Results flagged for a closer look

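In each group of 4 saline libraries, the gap between the highest or lowest library and its neighbour was divided by the range of the group, over the sums of all gene lists and the levels of the genes given above. In 46 of 176 groups the ratio exceeded 0.829 (Dixon's test), and 32 of these were the library labelled DG Sal 3. Chance flags about 1 in 20 groups of unselected values, but that rate does not apply here: many of the genes were named because they were called without DG Sal 3, which favours genes in which it stands apart, and genes and lists are not independent of each other. The counts are therefore a description and no test.

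The library labelled DG Sal 3 stood apart in the summed level of medium spiny neuron markers (0.929), hypothalamic peptides (0.878) and opioid genes (0.894). Among striatal genes the ratio was 0.915 for Ppp1r1b, 0.911 for Drd1, 0.968 for Drd2, 0.993 for Adora2a, 0.909 for Penk, 0.925 for Tac1, 0.869 for Adcy5, 0.931 for Drd3 and 0.969 for Rarb. It was 1.0 for Isl1 and Lhx8, which had no read in the other DG libraries, 0.97 for Dlx5, 0.971 for Foxp2 and 0.984 for Zfp521. For genes of cholinergic neurons it was 0.953 for Chat, 0.912 for Slc18a3 and 0.985 for Slc10a4. It was 0.988 for Gpr149, 0.956 for Unc13c, 0.917 for Sv2c, 0.905 for Oprk1, 0.965 for Krt71, 0.931 for Robo1, 0.961 for Rspo1, 0.906 for Sertad4, 0.866 for Mppe1, 0.855 for Slc32a1 and 0.881 for Htr1d. P2rx6, a purinergic receptor subunit, was at 17.3 CPM there and at 5.32 to 6.08 CPM in the other DG libraries (0.937). All but Rspo1, which was lower, were higher in this library than in the other DG libraries.

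NAc Sal 4 stood apart in the pallial sum (0.838), Neurod6 (0.835), Neurod1 (0.98), Slc17a7 (0.841), Nrn1 (0.94) and Vip (0.909), all higher than in the other NAc libraries. NAc Sal 2 stood apart in thalamic markers (0.942), hypothalamic peptides (0.878) and Ttr (0.97), at 136, 47.3 and 6.67 CPM. NAc Sal 1 stood apart in the endocannabinoid sum (0.872) and in Cnr1, the cannabinoid receptor (0.909), at 905 CPM against 126 to 197 CPM in the other NAc libraries. NAc Sal 3 had the highest Robo1 level (0.851). DG Sal 4 stood apart in the choroid plexus sum (0.918) and Ttr (0.916).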

How the results depend on the processing

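With all 8 libraries 0 genes were called under every alternative but DESeq2 (4), the edgeR likelihood ratio test (2) and leaving out a library (0 to 20, the 20 being the count without DG Sal 3). Without DG Sal 3, the main count of 20 became 594 with DESeq2, 590 with the likelihood ratio test, 45 without a filter, 36 in a fit of all saline libraries, 214 in a fit of all libraries, 307 with 2 RUVr factors, 1 with the run as covariate and 332 at an FDR below 0.05 and any fold, and 0 to 32 when leaving out a further library. It stayed within 1.5 times under TMM (27), RLE (27), the series count matrix (27), 1 RUVr factor (16), a filter at 1 CPM (21) and an FDR below 0.01 at any fold (21). The replicate block gave 0. Whether the replicate numbers pair the libraries was not settled. Same-numbered NAc and DG libraries correlated at -0.031, -0.275, 0.289 and -0.024 in their deviations from the group means. Not every library correlated best with its own number. The DG mean included the library labelled DG Sal 3, so these correlations cannot decide whether the numbers pair libraries. Replicates 3 and 4 of NAc Sal and DG Sal share the header numbers 22 and 23. With the block, METH gave 204 and the difference between treatments 0. The METH count of 373 became 933 with DESeq2 and 108 to 677 when leaving out a library, the 677 without NAc METH 3. The difference between treatments became 16 with DESeq2. The comparison over the 16 libraries of both treatments was added after seeing the data and had no treatment term. In it 157 genes were called, 687 without DG Sal 3 and 2 with the library number as a block. The fit of run B alone (0 genes) was also added after seeing the data. The cause of these changes was not tested. Each of the 20 genes kept its sign under all 20 alternatives that refit it and was called in 8 to 15 of them. With 3 or 4 libraries a group, spread between libraries limits what could be called.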

Other observations

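The libraries were also set beside the mean log2 CPM of each of the 8 groups of the series, across genes. Each library was left out of the mean of its own group, and the library labelled DG Sal 3 out of every DG Sal mean. DG Sal 1 correlated at 0.994 with the CA METH mean and at 0.991 with the CA Sal mean. It correlated at 0.974 with the DG Sal mean, which for it held DG Sal 2 and 4 only. The library labelled DG Sal 3 correlated at 0.988 with the NAc Sal mean, at 0.983 with the SVZ Sal mean and at 0.953 with the DG Sal mean. NAc Sal 1, 2 and 3 each correlated at 0.975 or above with the SVZ Sal mean, and NAc Sal 4 at 0.973. DG Sal 4 held Ddc, an enzyme of monoamine synthesis, at 151 CPM and Chrna3, a nicotinic receptor subunit, at 88.8 CPM, while no other of the 8 libraries exceeded 7.68 CPM for the former and 5.40 CPM for the latter.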
